A study of Homo sapiens with 9 samples.

Results

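The inhibitors of DNA binding *ID1* (ENSG00000125968), *ID2* (ENSG00000115738), *ID3* (ENSG00000117318) and *ID4* (ENSG00000172201), the inhibitory SMADs *SMAD6* (ENSG00000137834) and *SMAD7* (ENSG00000101665), the receptor SMAD *SMAD9* (ENSG00000120693), the pseudoreceptor *BAMBI* (ENSG00000095739) and the homeobox factors *MSX1* (ENSG00000163132) and *MSX2* (ENSG00000120149) are known targets of BMP signalling. These 10 of 36601 genes were chosen by symbol, each symbol had 1 row in both count tables, and none of them was used to define the cells below. They were followed in human extra-embryoids (hEEs), which are aggregates of human pluripotent stem cells that form an inner embryonic-like and an outer hypoblast-like compartment. Wild-type ESI017, an established human embryonic stem cell line, was kept on inactivated feeders in hEP medium, which per the methods held a WNT and a ROCK inhibitor, aggregated in spontaneous differentiation medium with a ROCK inhibitor at first, and moved on D3 to mIVC2 medium, alike for both days. Organized aggregates were picked by eye on D4 and on D6. Per the methods, the wells of a day came from independent experiments with different clones and passages, and were pooled before dissociation. The cells were profiled by droplet sequencing of transcript 3′ ends. The study therefore gives 1 library per day from 1 genetic background, and day and library cannot be told apart. Nor can clone and experiment be told apart within a library.

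BMP ligands such as *BMP2* and *BMP4* bind pairs of type I and type II receptors, which phosphorylate *SMAD1*, *SMAD5* and *SMAD9*. These join *SMAD4*, enter the nucleus and activate target genes. Among the fastest targets are the ID genes, whose products lack a DNA-binding domain and hold E proteins such as *TCF3*, *TCF4* and *TCF12* in inactive dimers. *SMAD6*, *SMAD7* and *BAMBI* are induced as brakes that act on the receptors or on the SMADs, and *MSX1* and *MSX2* are transcription factors of tissues patterned by BMP. In primate embryos, BMP signalling is tied to the formation of the amnion, and the anterior part of the visceral endoderm secretes antagonists such as *CER1*.

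After filtering to cells within the lower and upper limits that the study set on unique molecular identifiers (UMIs), with at most 10% mitochondrial UMIs, 9151 of 10943 cells of D4 and 10097 of 11483 cells of D6 remained, with medians of 12717 and 12960 UMIs. An embryonic gate (*POU5F1* at 5 UMIs or more, *SOX2* at 1 or more, *FN1* at 2 or fewer) held 3716 and 5054 cells, of which 81 and 350 had 2 or more UMIs of *TFAP2A* and are called *TFAP2A*-positive. A hypoblast gate (*FN1* at 3 or more, *SOX2* at 0, *POU5F1* at 5 or fewer) held 4061 and 3567 cells. Median depth was 15158 and 14226 UMIs in the embryonic gate, 15444 and 13979.5 in *TFAP2A*-positive cells, and 11012 and 10902 in the hypoblast gate. Endoderm and embryonic markers not used by the gates mostly followed the labels. All measured primitive streak markers and some amnion, mesoderm and germ cell markers were also at least 2-fold higher in the hypoblast gate, as given below. All 7 endoderm markers apart from *PDGFRA* at D4 were at least 2-fold higher in the hypoblast gate, 5 of 7 embryonic markers were at least 2-fold lower there, with *PODXL* the exception in the other direction, and the 6 trophoblast markers summed to at most 0.105 CPM in either gate. *APOA1*, the main apolipoprotein of the hypoblast gate, stood in the embryonic gate at 1.28% of its hypoblast level at D4 and 0.752% at D6. Yet 18.2% and 61.6% of embryonic cells had a UMI of it, so a UMI in a single cell can be background. As *APOA1* is abundant, these shares set no limit for genes with few UMIs. The libraries shared 40 cell barcodes, 27 of them among kept cells.

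Levels are given in CPM, the UMIs of a gene summed over a population per 1000000 UMIs of that population, with an exact 95% Poisson interval in brackets, and shares of cells have an exact 95% binomial interval (Clopper-Pearson). Differences are log2 ratios of 2 such levels with an exact binomial 95% interval. With 1 library per day no test could be run, the intervals and limits cover counting error only, and a gene is called higher or lower when its ratio is at least 2-fold, the interval leaves out 0 and both populations together hold at least 50 UMIs. A level in a population of cells does not separate more cells with the RNA from more RNA per cell.

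The promoter windows of *ID1* and of the members that went with it most closely over embryonic cells of D6, *ID3*, *ID4* and *BAMBI*, are printed here from RefSeq (GRCh38.p14, 250 bases before to 50 bases after the gene start, in gene orientation) to show how the starts of these co-varying genes differ. At D4, *ID2* ranked ahead of *BAMBI*. Capitals mark GGCGCC and GGAGCC on either strand (GGCTCC is the second read in reverse), letters known from BMP-responsive elements. The *ID1* window is chr20:31605039-31605338 on the plus strand, *ID3* is chr1:23559452-23559751 on the minus strand, *ID4* is chr6:19837120-19837419 on the plus strand and *BAMBI* is chr10:28677271-28677570 on the plus strand.
ID1 promoter window: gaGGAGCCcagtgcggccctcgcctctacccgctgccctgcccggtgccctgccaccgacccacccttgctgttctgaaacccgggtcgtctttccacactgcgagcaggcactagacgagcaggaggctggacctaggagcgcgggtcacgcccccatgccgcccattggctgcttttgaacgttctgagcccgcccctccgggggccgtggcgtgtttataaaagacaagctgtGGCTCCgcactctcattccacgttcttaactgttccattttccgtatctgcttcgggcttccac
ID3 promoter window: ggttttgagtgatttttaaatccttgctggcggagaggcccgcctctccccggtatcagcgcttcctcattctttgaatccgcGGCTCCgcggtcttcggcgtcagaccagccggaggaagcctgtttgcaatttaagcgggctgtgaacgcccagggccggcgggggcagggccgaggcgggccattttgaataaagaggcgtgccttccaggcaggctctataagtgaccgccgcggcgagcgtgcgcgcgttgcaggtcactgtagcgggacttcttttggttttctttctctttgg
ID4 promoter window: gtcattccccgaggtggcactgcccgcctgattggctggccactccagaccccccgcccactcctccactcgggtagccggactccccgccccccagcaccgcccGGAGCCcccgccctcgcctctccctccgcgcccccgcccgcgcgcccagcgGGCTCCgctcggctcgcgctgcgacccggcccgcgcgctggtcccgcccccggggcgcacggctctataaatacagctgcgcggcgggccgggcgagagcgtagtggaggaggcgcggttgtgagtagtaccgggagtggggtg
BAMBI promoter window: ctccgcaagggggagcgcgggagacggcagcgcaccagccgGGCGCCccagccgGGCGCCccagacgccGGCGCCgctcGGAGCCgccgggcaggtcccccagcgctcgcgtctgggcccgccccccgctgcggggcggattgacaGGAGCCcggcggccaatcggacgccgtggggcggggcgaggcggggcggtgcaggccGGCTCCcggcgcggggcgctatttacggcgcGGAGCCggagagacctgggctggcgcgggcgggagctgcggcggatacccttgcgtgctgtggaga

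*BAMBI* held the most marked stretches, 3 of GGCGCC and 4 of GGAGCC, and was the only member with GGCGCC, which 19.2% of 35116 RefSeq promoter windows hold. GGAGCC was found 2 times in *ID1*, once in *ID3* and 2 times in *ID4*, and in the windows of 8 of the 10 members, against 36.0% of all windows. The 2 members without either were *ID2* and *MSX2*. The shorter SMAD-binding letters GTCTG, searched on both strands, which can overlap the others by an end letter, were in a window of 5 members and in 45.3% of all windows. *SMAD7* had 3 windows and the other members 1 each. The member counts take any window of a gene and the percentages are shares of windows, so they are unlike measures. GGCGCC and GGAGCC are rich in G and C, which made up 62.7% of the *ID1* window, 59.7% of *ID3*, 76.3% of *ID4* and 80% of *BAMBI*. The shares of all windows were not matched for this. A match is a description of letters only, and these windows do not cover distant enhancers.

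The ID genes made up most of the members' UMIs. *ID1* was at 1070.5 [1062, 1079] CPM in the embryonic gate at D4 and 1042 [1035, 1049] at D6. In *TFAP2A*-positive cells it was at 1966 [1892, 2043] and 2484 [2441, 2528], and in the hypoblast gate at 1524 [1513, 1535] and 1402 [1391, 1414]. *TFAP2A*-positive cells thus held the highest *ID1* level on both days, followed by the hypoblast gate, and within a day no intervals overlapped. *ID3* was at 996 and 701 in the embryonic gate, 1512 and 1317 in *TFAP2A*-positive cells, and 977 and 732 in the hypoblast gate. Unlike *ID1*, it hardly differed between the gates. *ID1* took 45.3% and *ID3* 42.2% of all member UMIs in the embryonic gate at D4, where counts of 3′ ends are not scaled by length.

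*ID2* and *ID4* had far fewer UMIs than *ID1* and *ID3*. *ID2* was at 98.1 and 89.97 CPM in the embryonic gate, 170.1 and 167 in *TFAP2A*-positive cells and 115 and 97.3 in the hypoblast gate. *ID4* was at 74.5 and 70.3, 156 and 200.0, and 102 and 50.6 in the same order. Both were highest in *TFAP2A*-positive cells, and *ID4* in the hypoblast gate lay above the embryonic gate at D4 and below it at D6. At the full depth, 98.2% [97.8, 98.5] of embryonic cells at D6 had a UMI of *ID1* and 50.7% [49.3, 52.1] one of *ID4*, against 100% [99.0, 100] and 86.9% [82.9, 90.2] of *TFAP2A*-positive cells. With every cell thinned to the lower of those UMI limits, the *ID4* shares were 20.6% and 49.1%. At that depth a median embryonic cell of D6 had 5 UMIs of the 4 ID genes together, a *TFAP2A*-positive cell 14 and a hypoblast-gate cell 7.

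Of the feedback inhibitors, *SMAD7*, which blocks receptor SMADs of both the BMP and the TGFβ branch, was nearly level across the populations. It was at 44.8 [43.1, 46.5] and 48.5 [47.0, 50.2] CPM in the embryonic gate, 56.0 [44.0, 70.2] and 63.3 [56.6, 70.6] in *TFAP2A*-positive cells, and 51.0 [48.9, 53.0] and 48.0 [45.9, 50.1] in the hypoblast gate. *SMAD6*, the inhibitor with a preference for the BMP branch, was at 4.67 and 4.65 in the embryonic gate, 11.9 and 9.35 in *TFAP2A*-positive cells, and 60.6 and 57.3 in the hypoblast gate. The 2 inhibitory SMADs therefore stood at like levels in the hypoblast gate and far apart in the embryonic gate. *BAMBI*, which resembles a type I receptor without a kinase, was at 65.2 and 59.3, 93.3 and 152, and 153 and 226 in the same order. *SMAD9*, itself a BMP receptor SMAD, was low throughout, at 3.51 and 3.35 in the embryonic gate, 8.21 and 4.87 in *TFAP2A*-positive cells, and 22.1 and 11.9 in the hypoblast gate.

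Of the homeobox genes, *MSX1* had the fewest UMIs of all members in the embryonic gate. *MSX2* was at 4.26 [3.74, 4.82] and 10.2 [9.47, 10.9] CPM there, 16.4 [10.3, 24.9] and 46.4 [40.7, 52.6] in *TFAP2A*-positive cells, and 51.6 [49.5, 53.6] and 93.7 [90.8, 96.7] in the hypoblast gate. It was the one member that rose past 2-fold from D4 to D6 in both the embryonic gate and its *TFAP2A*-positive cells, and its levels in the hypoblast gate differed by less than 2-fold. In the other embryonic cells *MSX2* was at 3.97 and 7.52. *TFAP2A*-positive cells were 81 of 3716 cells of the embryonic gate at D4 and 350 of 5054 at D6. The part of this shift in the rise over the whole gate was not tested. *MSX1* had 15 UMIs in 14 cells of the embryonic gate at D4 and 44 in 41 cells at D6, and 1 and 3 UMIs in *TFAP2A*-positive cells, so its difference from other embryonic cells was not detectable at this depth. In the hypoblast gate it was at 6.63 and 12.9, from 317 UMIs in 216 cells and 537 UMIs in 241 cells. These are 5.32% [4.65, 6.05] and 6.76% [5.95, 7.63] of the gate's cells, whereas *BAMBI* had a UMI in 73.7% [72.3, 75.1] and 78.2% [76.8, 79.6].

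**Figure D1:**
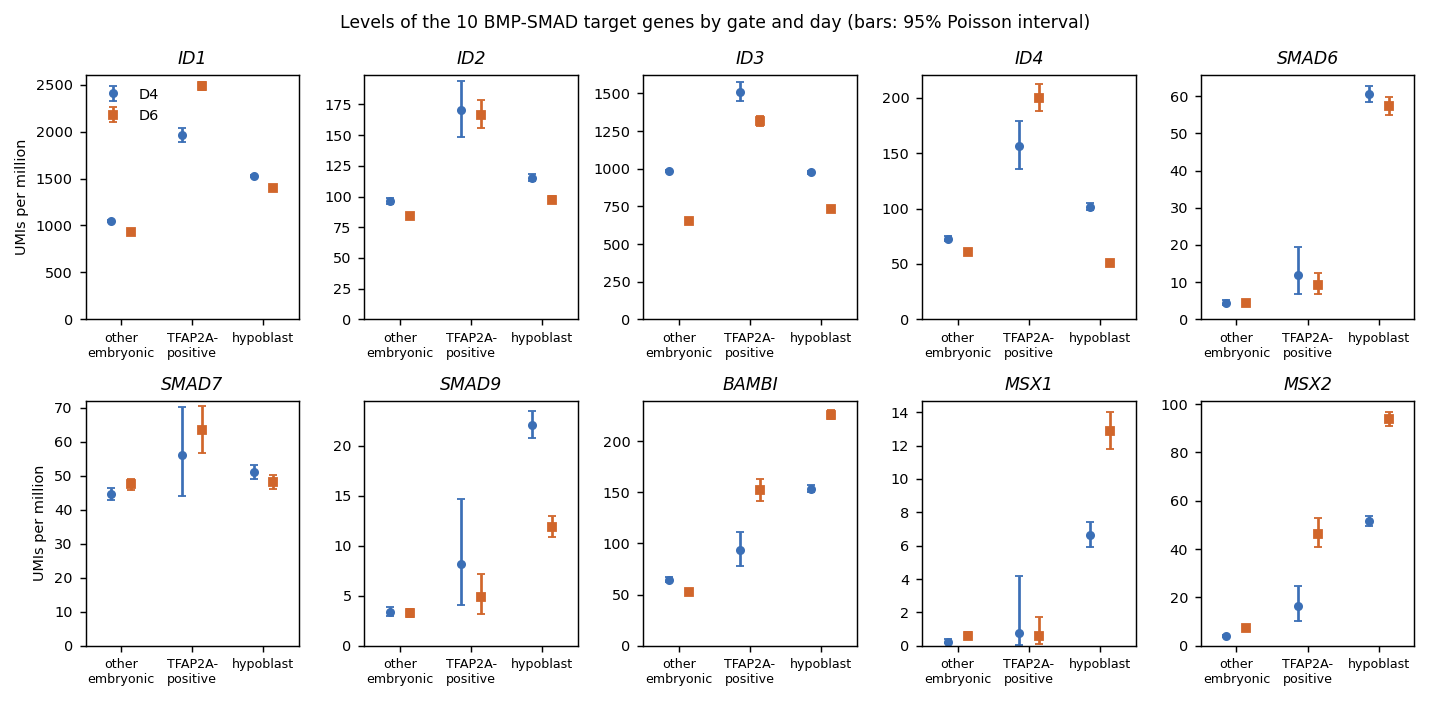
CPM of each member in embryonic cells that are not *TFAP2A*-positive, *TFAP2A*-positive cells and the hypoblast gate, with D4 as circles and D6 as squares, bars showing the 95% Poisson interval and each panel on its own linear scale from 0. The 4 ID genes peak in *TFAP2A*-positive cells, whereas *SMAD6*, *SMAD9*, *BAMBI*, *MSX1* and *MSX2* peak in the hypoblast gate, where *SMAD6* stands at 60.6 and 57.3.

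*TFAP2A*, an early transcription factor of amnion, was used to ask how BMP targets stand in the embryonic cells that hold it. The paper proposes that late amnion induction in hEEs depends on BMP. Choosing cells by an amnion gene can thus itself choose cells that respond to BMP. How far this sets the counts below was not tested. At D6, 6 of the 9 members with enough UMIs were at least 2-fold higher in *TFAP2A*-positive cells than in other embryonic cells, and none was lower, where 1.4% of 15285 genes were called higher and 1.42% lower. At D4, 4 of 9 were higher and none lower, against 1.1% and 0.924% of 14395 genes. The members' median log2 ratio was 0.91 at D4 and 1.12 at D6, beside 0.01 and 0.02 over all genes compared. *MSX1* had too few UMIs on either day.

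Among the ID genes, *ID4* was higher on both days, at 72.6 against 156 CPM at D4 (log2 1.10 [0.90, 1.30]) and 60.8 against 200.0 at D6 (1.72 [1.62, 1.82]). *ID1* had log2 ratios of 0.91 [0.85, 0.96] and 1.41 [1.38, 1.44], which passed 2-fold at D6 alone. *ID3* lay at 0.62 [0.56, 0.68] and 1.01 [0.97, 1.04], and *ID2* at 0.82 [0.62, 1.01] and 0.98 [0.88, 1.09]. At D6 both *ID2* and *ID3* thus sit at the 2-fold line. The D6 ratio of *ID3* ranged over the alternatives from 0.96, with 1 *TFAP2A* UMI or more, to 1.05. All 4 intervals lay above 0 on both days.

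The homeobox gene *MSX2* had the highest ratio of any member on both days, 2.05 [1.35, 2.68] at D4 from 22 UMIs and 2.62 [2.40, 2.85] at D6, a 6.17-fold difference. *BAMBI* was 0.53 [0.26, 0.79] at D4 and 1.54 [1.42, 1.65] at D6, called on D6. *SMAD6* was higher on both days (1.41 [0.58, 2.14] and 1.12 [0.65, 1.56]), although it stayed under 12 CPM in *TFAP2A*-positive cells and its D4 value came from 16 UMIs. *SMAD9* was called at D4 from 11 UMIs (1.27 [0.24, 2.14]), and at D6 its interval held 0 (0.59 [−0.07, 1.19]). *SMAD7* stayed within 2-fold, at 0.33 [−0.02, 0.66] and 0.42 [0.25, 0.58].

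Among other genes of the pathway, none of the measured receptors, *SMAD1*, *SMAD5*, *SMAD4*, the SMAD ubiquitin ligases *SMURF1* and *SMURF2* or the E proteins was called on either day. *BMPR1A*, the most abundant type I receptor here, was at 63.7 CPM in *TFAP2A*-positive and 51.6 in other embryonic cells at D6 (log2 0.30), and the E protein *TCF3* at 93.9 and 96.8 (−0.04). Ligands did differ at D6, where of 5 with enough UMIs *BMP4* (1.73 [1.44, 2.01]) and *BMP7* (1.18 [0.94, 1.41]) were higher. Of 3 at D4 none was called, and *BMP4* had 9 UMIs there. Of the other BMP-responsive transcription factors, 3 of 5 were higher at D4, *GATA3* (1.74), *GATA2* (1.56) and *TFAP2C* (1.39), and 6 of 7 at D6, the largest being *DLX5* (4.51 [3.71, 5.34]) and *HAND1* (3.74 [3.16, 4.31]).

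Genes of the *NODAL* and activin branch, which signals through SMAD2 and SMAD3, went the other way at D4. Of 9 such targets 5 were lower in *TFAP2A*-positive cells, among them *LEFTY1* (−7.17 [−12.47, −4.69], from 1 UMI), *LEFTY2* (−4.11 [−6.39, −2.56], from 3 UMIs), and *NODAL* and *CER1*, both at 0 of 1340095 UMIs, which allows a level of up to 2.24 CPM. At D6, 2 of 10 were lower, among them *CER1* (−1.41), and 1 was higher, *NODAL* (1.30). Amnion markers moved with the members. At D6, 5 of 9 were higher, at a summed 209.6 against 141 CPM, whereas at D4 only *GATA3* of 7 was, and *ISL1* had no UMI in the 81 *TFAP2A*-positive cells. The amnion list shares *DLX5*, *HEY1* and *GATA3* with the BMP-responsive factors above and *BMP4* with the ligands. These lists are therefore not separate evidence. Endoderm markers moved the other way at D4, where *APOA1* (−1.01), *APOA2* and *FOXA2* of 7 were lower, at a summed 29.8 against 49.7 CPM, and none of 7 was called at D6. The part of these lists in the members' ratios was not tested. Median mitochondrial shares were 4.24% and 1.52% in *TFAP2A*-positive cells and 3.82% and 1.97% in the others, and their part in the result was not tested beyond a limit of 5%, under which 3 members were higher at D4 and 6 at D6.

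**Figure D2:**
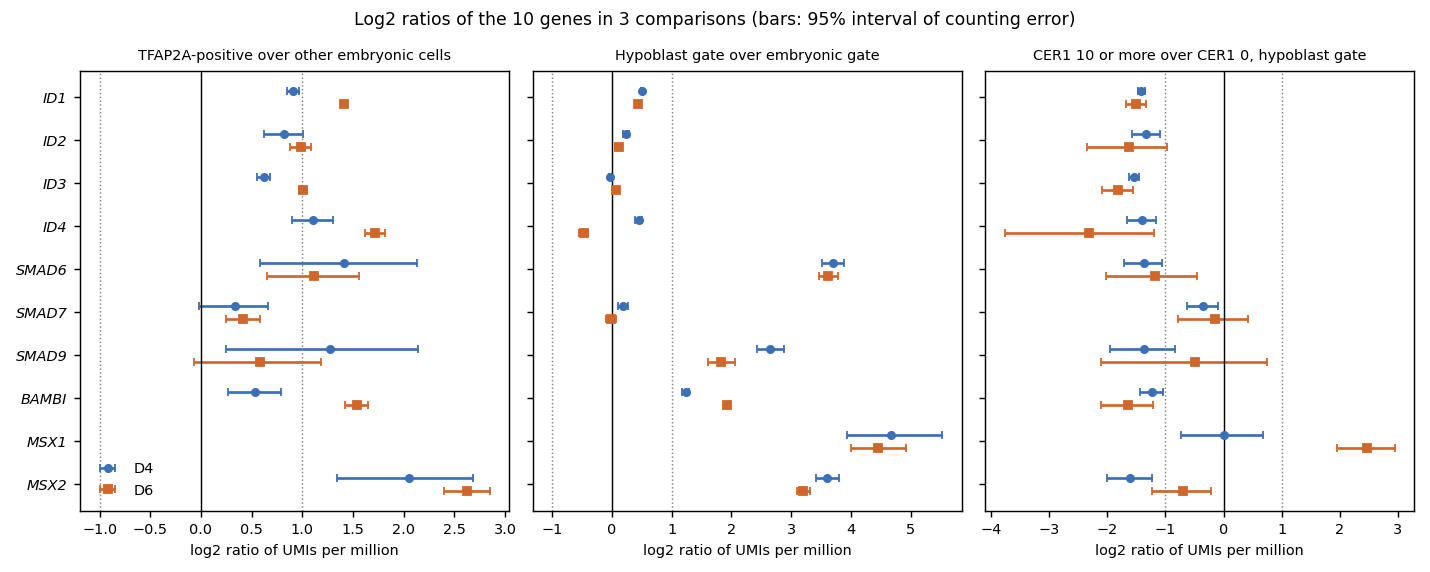
Log2 ratio of CPM for each member in 3 comparisons, D4 as circles and D6 as squares, with 95% intervals and dotted lines at 2-fold; genes with under 50 UMIs are not drawn. Members lie to the right in *TFAP2A*-positive cells and mostly to the left in *CER1*-high cells of the hypoblast gate, while in the hypoblast gate against the embryonic gate *SMAD6*, *SMAD9*, *BAMBI*, *MSX1* and *MSX2* lie beyond 2-fold and the ID genes and *SMAD7* do not.

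The members did not step up together at the chosen *TFAP2A* threshold. At D6, *ID1* stood at 868 CPM in embryonic cells with no *TFAP2A* UMI, 1844 with 1, 2434 with 2 to 3 and 2590.0 with 4 to 7. Most of its difference was thus already there at 1 UMI. *ID4* went from 54.6 to 144, 181 and 234, and *MSX2* from 6.31 to 23.7, 39.6 and 56.6, each higher in every next group. *BAMBI* was at 48.3, 109, 149 and 156, and *SMAD7* at 46.9, 55.3, 60.0 and 70.4. Only 12 cells had 8 or more *TFAP2A* UMIs, so no trend was read from them.

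At D4 the same order held for *ID1* up to 2 to 3 *TFAP2A* UMIs, at 1009.8, 1601 and 1987 CPM, and for *ID3*, at 954, 1398 and 1488. *BAMBI* was higher with 1 *TFAP2A* UMI (114 [103, 125]) than with none (61.0 [58.9, 63.2]) and no higher with 2 to 3 (95.01 [78.2, 114]). Only 8 cells had 4 to 7 UMIs and 1 had more. Among *TFAP2A*-positive cells of D6, 18 also had *ISL1*, a later amnion gene. They held *ID1* at 2868 and *ID4* at 317, beside 2459 and 192 in the 332 without. *ID3* stood at 656 [570.1, 750.3] against 1361 [1328, 1394]. The cells with *ISL1* were under 20 in number and deeper, with a median of 18638 against 13909.5 UMIs.

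**Figure D3:**
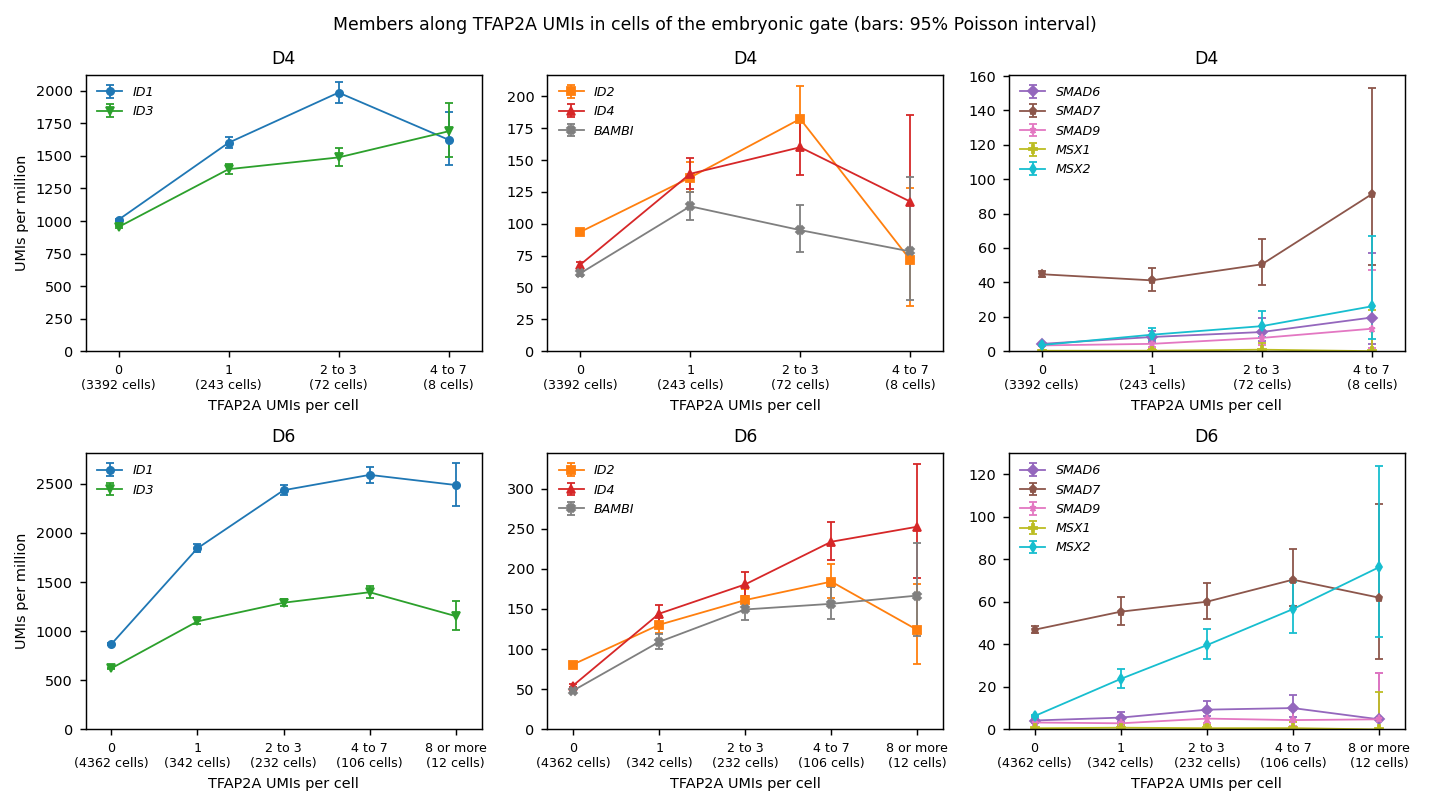
CPM of the members in embryonic-gate cells grouped by *TFAP2A* UMIs, D4 above and D6 below, with 95% Poisson intervals and the number of cells under each group (the single D4 cell with 8 or more is not drawn). At D6, *ID1*, *ID4* and *MSX2* climb from left to right up to 4 to 7 UMIs, and *SMAD7* goes from 46.9 to 70.4.

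The hypoblast gate and the embryonic gate of the same library were compared next. The same 5 members, *SMAD6*, *SMAD9*, *BAMBI*, *MSX1* and *MSX2*, were at least 2-fold higher in the hypoblast gate on both days, and none of the 10 was lower. This is to be read against a high background, since 13% of 15977 genes were called higher and 13.1% lower at D4, and 13.4% and 18.4% of 16485 at D6. The members' median log2 ratio was 0.87 and 1.13, beside −0.04 and −0.13 over all genes, and the D6 ratios below are to be read against that shift.

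The inhibitor *SMAD6* was 13.0-fold higher at D4 (log2 3.70 [3.52, 3.88]) and 12.3-fold at D6 (3.62 [3.46, 3.79]). *BAMBI* was 1.23 [1.18, 1.29] and 1.93 [1.88, 1.98], and *SMAD9* 2.65 [2.44, 2.88] and 1.83 [1.60, 2.05], so that the ratio of *BAMBI* was larger and that of *SMAD9* smaller at D6. *MSX1* had the highest ratios, 4.67 [3.93, 5.53] and 4.45 [4.01, 4.93], followed by *MSX2* with 3.60 [3.41, 3.79] and 3.20 [3.09, 3.32]. For comparison, *APOA1* stood at 6.28 and 7.06.

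None of the ID genes passed 2-fold. *ID1* was 0.51 [0.49, 0.52] and 0.43 [0.41, 0.44] and *ID2* 0.23 [0.18, 0.29] and 0.11 [0.06, 0.17]. The sign of *ID2* at D6 turned when mitochondrial and ribosomal protein genes were left out of the total (−0.05). *ID3* lay at −0.03 [−0.05, −0.01] and 0.06 [0.04, 0.08], with signs that turned to 0.01 when centred at D4 and to −0.10 under the other scaling at D6, so no direction is given for it. *ID4* was 0.45 [0.39, 0.51] at D4 and −0.48 [−0.55, −0.40] at D6, with opposite signs under each scaling. *SMAD7* was 0.19 [0.11, 0.27] and −0.02 [−0.10, 0.06], and its D6 sign turned on centring (0.12).

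The rest of the pathway set the hypoblast gate further apart. All 5 ligands with at least 50 UMIs were higher at D4, and 3 of 6 at D6, where *BMP8B* was lower. *BMP2* was the most abundant, at 228 and 193 CPM against 4.78 and 4.33 (log2 5.58 and 5.47). Of the secreted antagonists, 5 of 10 were higher at D4 and 7 of 9 at D6, among them *FST* (2.53 and 3.62) and *BMPER* (6.14 and 6.49), and *CHRDL1* was lower on both days. Of 3 type I receptors with enough UMIs 1 was higher on each day. The type I receptor *BMPR1A* was lower at D4 (−1.04 [−1.14, −0.95]) and within 2-fold at D6 (−0.98 [−1.08, −0.88]). Of 4 type II receptors 2 were higher at D4 and 3 at D6, with *BMPR2* and *AMHR2* higher on both days. *SMAD1*, *SMAD5* and *SMAD4* stayed within 2-fold. Of the E proteins bound by ID, *TCF4* was lower on both days (−1.40 [−1.48, −1.32] and −1.20 [−1.28, −1.11]) and *TCF3* and *TCF12* were within 2-fold. Of other BMP-responsive factors, 6 of 8 and 5 of 9 were higher, led by *TBX3* and *GATA3* (log2 6.82 and 5.51 at D6). At D4 1 was lower and at D6 2 were, among them *TFAP2C* on both days (−5.25 and −4.98). Of 10 SMAD2/3 targets 6 were higher at D4 and 8 at D6, and 1 was lower on each day. Markers of other lineages moved with the gate as well. Of amnion markers with enough UMIs, 5 of 8 were higher and 1 lower at D4 (summed 635 against 169 CPM) and 3 of 9 higher and 2 lower at D6 (499.8 against 146). Of 3 germ cell markers 2 were higher and 1, *TFAP2C*, lower on both days (summed 197 against 21.7, and 178 against 25.4). Of 5 mesoderm markers 2 were higher at D4 and 4 at D6 (summed 783 against 1173 CPM, and 745 against 527), and of primitive streak markers 3 of 3 and 4 of 4 with enough UMIs (summed 157 against 7.98, and 264 against 7.83). Their part in the members' ratios was not tested.

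Within the hypoblast gate most members were lower in cells rich in *CER1* than in cells without it. *CER1* is a secreted antagonist of BMP and *NODAL* and a marker of the anterior visceral endoderm. The paper also expects CER1 signal in maturing mesodermal cells, so *CER1* alone does not name a cell type. The markers of the *CER1*-high cells differed between the days, as given below. This comparison was added to the design's groups of *CER1* UMIs after the data had been seen. At D4, 8 of 10 members were at least 2-fold lower in the 232 cells with 10 or more *CER1* UMIs than in the 3139 with none, and none was higher. Over all 13378 genes 3.08% were lower and 2.98% higher. At D6 only 33 cells had 10 or more, against 3358 with none, and 6 members were lower and 1, *MSX1*, higher, where 3.28% of 13425 genes were lower and 3.87% higher. The members' median log2 ratio was −1.37 and −1.35, beside −0.04 and 0.02 over all genes.

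*ID1* fell in steps at D4, from 1663 CPM at no *CER1* UMI to 1384 at 1 to 2, 1007 at 3 to 9 and 625 at 10 or more (log2 −1.41 [−1.48, −1.35] between the ends). At D6 it went from 1429.8 to 1262, 991 and 504 (−1.51 [−1.68, −1.34]). *ID3* went from 1083 to 840.1, 565 and 372 at D4, and from 757 to 483, 379 and 215 at D6. Every step of both genes was downward on both days. The end ratios of *ID2* were −1.33 [−1.57, −1.10] and −1.62 [−2.35, −0.98], and those of *ID4* −1.40 [−1.67, −1.16] and −2.31 [−3.76, −1.19], the D6 value resting on 6 UMIs. Thinned to the lower UMI limit, a median cell with no *CER1* UMI had 10 UMIs of the ID genes at D4 and 7 at D6, and one with 10 or more had 2.5 and 2.

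The inhibitors split again. *SMAD6* was lower on both days (−1.37 [−1.71, −1.05] and −1.18 [−2.02, −0.46]), as was *BAMBI* (−1.23 [−1.43, −1.04] and −1.64 [−2.10, −1.20]), whereas *SMAD7* stayed within 2-fold (−0.36 [−0.62, −0.10] and −0.15 [−0.78, 0.41]). *SMAD9* was lower at D4 (−1.37 [−1.96, −0.84]) and its D6 interval held 0, from 5 UMIs. *MSX2* was lower at D4 (−1.61 [−2.01, −1.24]) and at −0.70 [−1.23, −0.21] at D6. *MSX1* was at 6.37 and 6.30 CPM at D4, with no difference detectable at this depth, and at 65.8 against 11.9 at D6 (2.47 [1.95, 2.95]), from 38 UMIs in 10 cells.

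Genes of the *NODAL* branch are given without *CER1*, which chose the cells. At D4, 5 of the 8 other SMAD2/3 targets were higher in *CER1*-high cells, with *LEFTY1* at 5.23, *GSC* at 4.26 and *NODAL* at 3.26. At D6, 3 of 8 were, *LEFTY2* (6.14), *LEFTY1* (2.09) and *GSC* (1.84). The antagonist *NBL1* was also higher on both days (2.39 and 1.98). Receptors, *SMAD1*, *SMAD5*, *SMAD4* and E proteins were not called on either day. The ligands *BMP5* and *BMP6* were lower on both days, and *BMP2*, the most abundant, was within 2-fold (0.35 and 0.56). At D6, *BMP7* was also lower (−2.97) and *BMP4* higher (1.95). Of other BMP-responsive factors, *HEY1* and *GATA2* of 6 were lower at D4, and of 4 at D6 *GATA3* and *TBX3* were lower and *HAND1* higher. The *CER1*-high cells of D6 and D4 had different markers. At D6, 3 of 5 mesoderm markers were higher, *HAND1* (3.95), *MESP1* (5.48) and *VIM* (1.79), and *APOA1*, *APOA2* and *SOX17* were lower, with the endoderm list at 4272 against 14240 CPM. At D4 none of the 7 endoderm or 5 mesoderm markers was called, at 1865 against 2542 for the endoderm list. The part of these other genes in the members' ratios was not tested. *CER1*-high cells were also deeper, with medians of 12212 and 16408 against 10787 and 10788 UMIs, and with all cells thinned to 1 depth 8 members at D4 and 5 at D6 were lower.

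**Figure D4:**
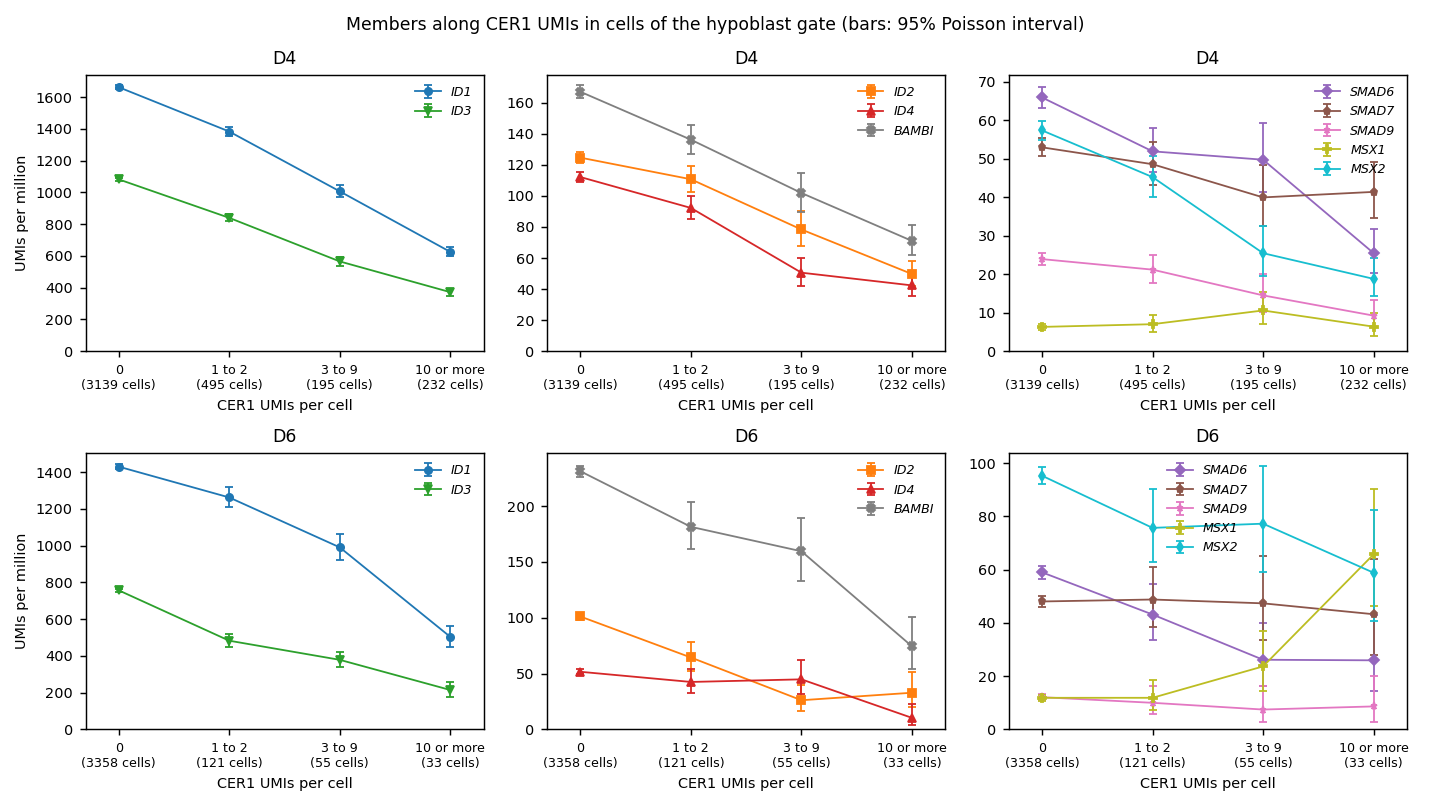
CPM of the members in hypoblast-gate cells grouped by *CER1* UMIs, D4 above and D6 below, with 95% Poisson intervals and cell numbers under each group. *ID1* and *ID3* step down in every group on both days, *SMAD7* goes from 53.0 to 41.4 at D4, and *MSX1* is raised in the last group of D6.

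*ISL1* divided the hypoblast gate the opposite way for the ID genes. It was present in some cells of this gate, and *ID1* at D4 was at 1444 CPM in the 3104 cells with none, 1714 in the 741 with 1 and 1919 in the 216 with 2 or more UMIs. At D6 it was at 1379, 1718 and 2047 in 3364, 167 and 36 cells. *ID4* went from 91.7 to 122 and 161 at D4 and from 47.6 to 86.5 and 163 at D6. Between the ends, at 2 or more *ISL1* UMIs against none, the log2 ratio of *ID1* was 0.41 [0.37, 0.45] at D4 and 0.57 [0.47, 0.66] at D6, and that of *ID4* 0.82 [0.67, 0.96] and 1.78 [1.42, 2.12]. Of the inhibitors, *SMAD6* was at 0.24 [0.02, 0.45] and 0.53 [0.01, 1.00] and *SMAD7* at 0.35 [0.12, 0.57] and 0.90 [0.41, 1.36]. *SMAD9* was at 0.37 [0.01, 0.71] and 1.90 [1.13, 2.58], the D6 value from 18 UMIs. *ID2* was at 0.40 and 0.86, *ID3* at 0.41 and 0.44 and *BAMBI* at 0.24 and 0.48. *ID4* and *SMAD9* at D6 were thus the ratios past 2-fold. The share of all genes past 2-fold was not computed for this split, so these calls carry no finding about the members. Cells with 2 or more *ISL1* UMIs were deeper, with medians of 12206.5 against 10847.5 UMIs at D4 and 11977.5 against 10907 at D6. After thinning, a median cell had 11.5 against 9 ID gene UMIs at D4 and 12 against 7 at D6. The intervals of *MSX1* and *MSX2* held 0 on both days, with *MSX2* at 0.23 [−0.01, 0.46] and −0.32 [−0.86, 0.18].

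*MSX1* reached its highest level outside both gates. Among cells in neither gate with 3 or more UMIs of *HAND1*, a factor of extra-embryonic mesoderm and amnion, and at most 2 of *APOA1*, 53 were found at D6 and 1 at D4. At D6 they held *MSX1* at 128 [102, 158] CPM, from 86 UMIs in 25 cells, and *BAMBI* at 306 [265, 350.2], also above either gate taken whole. Their *ID1* was the reverse, at 562 [507, 622], below both gates, and after thinning 34.0% of them had no UMI of any ID gene, against 4.27% of embryonic and 2.92% of hypoblast-gate cells. *ID2* (71.2) and *ID3* (386) were also below both gates. *ID4* was not, at 72.7 CPM from 49 UMIs, against 70.3 in the embryonic and 50.6 in the hypoblast gate. After thinning, 5.66% of these cells had a UMI of every ID gene, against 6.55% of embryonic and 4.46% of hypoblast-gate cells. *HAND1*, which chose these cells, is itself on the list of BMP-responsive factors, and the share of all genes was not computed for them. Hypoblast-gate cells of D6 with 2 or more *ISL1* UMIs held *BAMBI* at 313 CPM. The median mitochondrial share of the *HAND1* cells was 3.65%, against 1.93% and 2.10% in the embryonic and hypoblast gates.

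From D4 to D6 most members stayed within 2-fold in each gate. In the embryonic gate, *MSX1* (1.18 [0.31, 2.13]) and *MSX2* (1.26 [1.05, 1.47]) were higher at D6 and none was lower, where 2.21% of 16506 genes were higher and 0.885% lower. The *MSX1* call, from 15 and 44 UMIs, was lost on averaging over cells (0.96) and with stricter gates (0.75). *TFAP2A*-positive cells gave 22 of the gate's 246 *MSX2* UMIs at D4 and 238 of 762 at D6. The ID genes stayed within 2-fold, the furthest being *ID3* at −0.51 [−0.52, −0.49]. In *TFAP2A*-positive cells 1 of 8 members, *MSX2* (1.498 [0.87, 2.20]), was higher and none lower, against 2.07% and 0.526% of 9507 genes, with *BAMBI* at 0.71 [0.43, 0.99] and *ID1* at 0.34 [0.28, 0.40]. Of the endoderm markers with enough UMIs, 2 of 3 were higher in *TFAP2A*-positive cells of D6 (all 7 summed to 137 against 29.8 CPM), and of amnion markers 2 of 5 (209.6 against 195). In the whole embryonic gate 1 of 7 endoderm markers was higher and 1 lower (124 against 49.2), and 2 of 9 amnion markers were higher (146 against 169). Their part in the members' ratios was not tested. The endoderm sums include *APOA1*, whose embryonic-gate level rose from 20.8 to 89.6 CPM while its hypoblast-gate level rose from 1621 to 11926. The embryonic level thus stayed at the small shares of the hypoblast level given above, 1.28% and then 0.752%. How much of the endoderm rise was background was not tested.

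In the hypoblast gate none was higher and 1 of 10, *ID4*, was lower, against 4.29% and 2.87% of 15181 genes. *ID4* went from 102 [98.8, 105] to 50.6 [48.5, 52.8] CPM, a log2 ratio of −1.01 [−1.08, −0.93] at the 2-fold line, which fell short of it on thinning (−0.94) and on averaging over cells (−0.94). *SMAD9* (−0.89 [−1.05, −0.74]) and *ID3* (−0.42 [−0.44, −0.40]) were also lower within 2-fold, and *MSX1* (0.96 [0.75, 1.16]), *MSX2* (0.86 [0.79, 0.93]) and *BAMBI* (0.56 [0.51, 0.60]) higher within 2-fold. The hypoblast gate also changed in its own markers, with *APOA1* at 2.88, *PDGFRA* at 3.26 and *CER1* at −2.40, and their part in the members' ratios was not tested. Median mitochondrial shares went from 3.75% to 2.10% in this gate and from 3.82% to 1.93% in the embryonic gate.

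Around the members, genes of both branches differed between the days. In the embryonic gate 6 of 10 SMAD2/3 targets were lower at D6, led by *LEFTY2* (−3.69) and *LEFTY1* (−3.41), and 3 of 5 ligands were higher, *BMP8B* (1.26), *BMP4* (1.10) and *BMP6* (1.08). Of 7 other BMP-responsive factors *DLX5* (3.92) and *HAND1* (2.20) were higher and none was lower. In *TFAP2A*-positive cells *BMP7* (2.17 [1.26, 3.26]) and *BMP4* (1.91 [0.95, 3.08]) were higher at D6, the only 2 ligands with at least 50 UMIs. In the hypoblast gate *BMP6* (2.11) and *BMP5* (1.16) were higher and *BMP7* (−1.37) lower. The fall of SMAD2/3 targets in the embryonic gate was not general. In *TFAP2A*-positive cells 1 of 2 with at least 50 UMIs was higher and none lower (all 10 summed to 402 against 178 CPM). In the hypoblast gate 2 of 9 were lower and none higher (840 against 1114 CPM), and 7 of the 9 had intervals above 0. Receptors, *SMAD1*, *SMAD5*, *SMAD4* and E proteins with at least 50 UMIs stayed within the call rule in all 3 populations.

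Over single cells of the embryonic gate and of the hypoblast gate the ID genes varied together. Pearson correlations were taken on ln(1 + UMIs per 10000) over the cells of 1 gate in 1 library, which share their library and differ in depth, and are given with the value after thinning every cell to the lower UMI limit. In the embryonic gate of D6 (5054 cells, 11612 genes), the 5 genes closest to *ID1* were *ID3* at 0.52 (0.37 thinned), the long noncoding RNA *PCAT14* at 0.48 (0.31 thinned), *ID4* at 0.47 (0.26 thinned), *BAMBI* at 0.41 (0.21 thinned) and *TFAP2A* at 0.41 (0.24 thinned), with *ID2* in rank 7 and *MSX2* in rank 10. At D4, *ID3* (0.67, 0.43 thinned), *ID4* (0.44, 0.20 thinned), *ID2* (0.38, 0.19 thinned) and *BAMBI* (0.36, 0.17 thinned) took ranks 1 to 4. These are the genes whose promoter windows are printed above, with *ID2* beside them. Thinning lowered each value but left *ID3* first on both days.

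The 5 genes closest to *MSX2* in the same cells were *PCAT14* (0.40, 0.18 thinned), *TFAP2A* (0.32, 0.15 thinned), *ID1* (0.28, 0.13 thinned), *BAMBI* (0.27, 0.10 thinned) and *ID4* (0.26, 0.10 thinned). *MSX2* averaged 0.151 UMIs per cell there, so its values are weak, and after thinning none passed 0.2. In the hypoblast gate of D6 (3567 cells) *ID3* was again closest to *ID1*, at 0.51 (0.35 thinned), followed by *GATA3* (0.31, 0.16 thinned), *HLA-B* (0.29, 0.18 thinned), *SAMD11* (0.29, 0.16 thinned) and *TBX3* (0.29, 0.19 thinned).

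The 6 pairs of ID genes had a median correlation of 0.40 in the embryonic gate at D4 and 0.35 at D6, and of 0.24 on both days in the hypoblast gate. Thinned, these were 0.19, 0.20, 0.12 and 0.14. The other 39 pairs of members had medians from 0.04 to 0.11, in genes with few UMIs per cell, so that weak values carry no finding. In the hypoblast gate of D6, *MSX1* had a correlation of −0.17 with *ID1* (−0.14 thinned), the lowest of the 45 pairs. At D4 the same pair was at −0.0066. Few cells of this gate had a UMI of *MSX1*, so the D6 value is a description only. Within *TFAP2A*-positive cells alone the median over ID pairs was 0.21 at D4 (81 cells) and 0.15 at D6 (350 cells), and 0.0869 and 0.11 after thinning. By correlation with *ID1* there, *ID4*, *ID3* and *ID2* ranked 70, 204 and 214 of 11375 genes at D4. Correlations of that size over 81 cells thus carry no finding. At D6, *ID3*, *ID4* and *ID2* ranked 2, 3 and 62 of 11676 genes, and 1, 14 and 589 of 7243 after thinning.

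**Figure D5:**
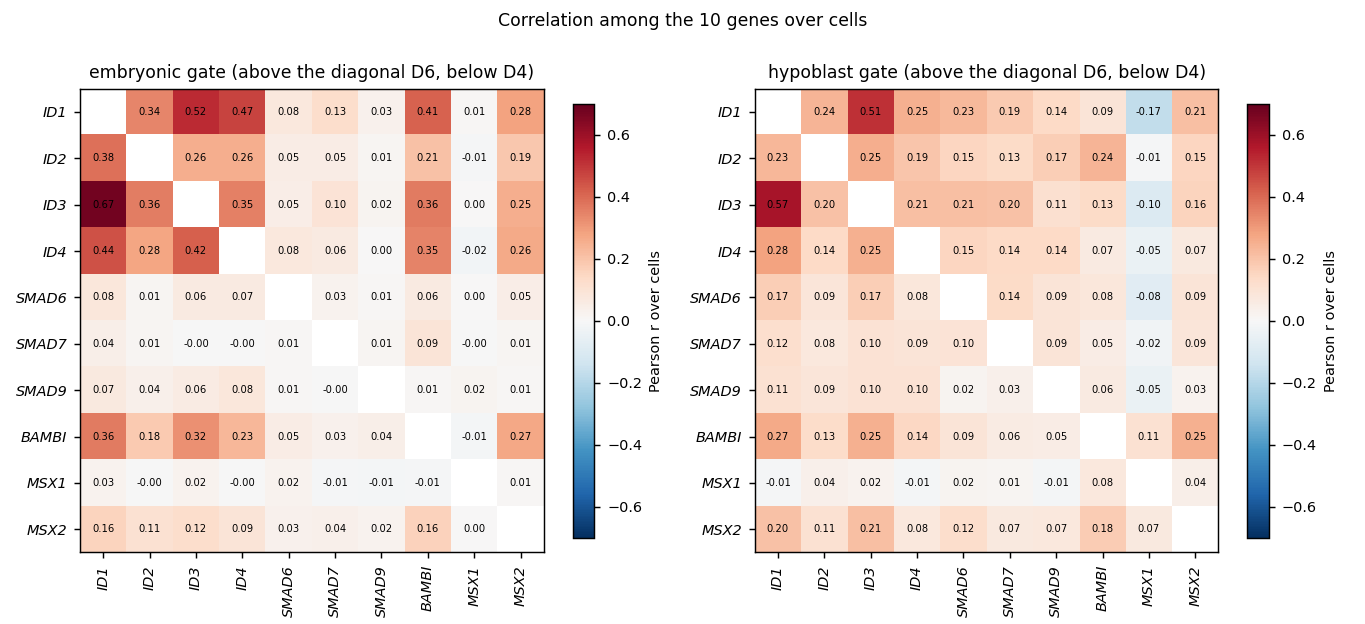
Pearson r over cells between members in the embryonic gate (left) and the hypoblast gate (right), with D6 above and D4 below the diagonal; red is positive and blue negative. The block of ID genes and its links to *BAMBI* stand out, with *ID1* and *ID3* at 0.67 at D4 and 0.52 at D6 in the embryonic gate.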

How the data were processed

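The authors aligned the reads to hg38 and counted UMIs with Cell Ranger 6.0.1 (per the labels), and the deposited counts are raw UMI counts of 36601 genes per called cell, without normalization, separately for D4 and D6. The 7 bisulfite libraries of the series were not used here. Reads of 3′ ends count molecules, and near-identical copies of a gene can lose reads in alignment.

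Cells with 3430 to 27500 UMIs and at most 10% mitochondrial UMIs were kept, which are the limits of the study's methods. The study's later removal of cell clusters with abnormal quality was not applied, so the cells differ from its final set. No doublet caller was run. The upper limit on UMIs removes some doublets, and 363 kept cells of D4 and 430 of D6 with markers of both lineages (3.97% and 4.26%) fall outside both gates. The 2 libraries held 151712246 and 150320228 UMIs. Counts were summed per gate and library in Python 3.11.15 with numpy 2.4.6, scipy 1.17.1 and pandas 2.3.3. Intervals are exact (Poisson for levels, Clopper-Pearson for shares, conditional binomial for ratios), at 95%. Thinning drew 3430 UMIs per cell without replacement under a fixed seed. Where a population had no UMI, 3 counts gave the upper limit. The method was tested on Poisson counts simulated without extra spread between cells, which is what the intervals assume. That test therefore cannot cover such spread. The thinned variance of *ID1* over embryonic cells of D4 was 2.41 times its mean. The members, lists and gates were chosen with earlier results of these data known, so their pattern is not independent support for those results. Named genes are all members, the called and the most abundant genes of fixed pathway lists, and the 5 genes closest to *ID1* and *MSX2* by correlation, and the ranks of members beyond the fifth and further list genes were added after their values had been seen. Some genes of the pathway lists are counted but not reported here by name.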

Additional observations from a re-analysis of the deposited data

Results flagged for a closer look

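Each value here is a difference between 2 log2 ratios of opposite sign whose counting intervals both left out 0, and with 1 library per day none of these differences was tested. *ID4* was higher in the hypoblast gate than in the embryonic gate at D4 (0.45) and lower at D6 (−0.48), a difference of −0.92. *ID3* turned from −0.03 to 0.06 in the same comparison, a difference of 0.090, and its signs turned with the scaling. From D4 to D6, *BAMBI* was lower in the embryonic gate (−0.14) and higher in the hypoblast gate (0.56), a difference of 0.70. *SMAD7* did the opposite, at 0.12 and −0.09, a difference of −0.20.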

How the results depend on the processing

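The alternatives changed scaling, depth, cell filters, gates, the measure of level, the count minimum and the fold, and those for the *CER1* comparison were chosen after seeing the data. Alternatives of the count minimum and of the fold act on the calls only. Their log2 ratios equal the reported ones by construction and are among the 1012 below, so that count overstates how stable the ratios were. Of 1197 recomputed log2 ratios of members, 1012 stayed within the reported interval, 183 lay outside it and 2 called ratios changed sign, both with gates set on thinned counts, which left 1 *TFAP2A*-positive cell at D4 and 19 at D6: *ID4* at D4 (−0.73) and *SMAD6* at D6 (−0.29), each from 1 UMI. In the *CER1* comparison 8 members were called under each alternative at D4, and 6 to 8 against the reported 7 at D6, and gates on thinned counts were not run on either day. The 5 members called between the hypoblast and embryonic gates numbered 5 under every alternative on both days. For *TFAP2A*-positive cells at D4, 4 members became 7 at a fold of 1.5, 3 on thinning, a mitochondrial limit of 5% or at least 1 *TFAP2A* UMI, 1 with gates on thinned counts and 2 with at least 4 *TFAP2A* UMIs. At D6, 6 became 7 at a fold of 1.5, 5 on centring, averaging over cells, leaving out cells above 20000 UMIs or no cell filter, and 4 with at least 1 *TFAP2A* UMI or with gates on thinned counts. From D4 to D6 in the embryonic gate, 2 became 1 on thinning, averaging over cells, stricter gates, leaving out cells above 20000 UMIs or a mitochondrial limit of 5%, and 0 with gates on thinned counts. In *TFAP2A*-positive cells 1 became 2 at a fold of 1.5. In the hypoblast gate 1 became 4 at a fold of 1.5 and 0 on thinning, averaging over cells, leaving out cells above 20000 UMIs or with gates on thinned counts. The cause of these changes was not tested, beyond the smaller numbers of cells and UMIs that the construction brings. Thinning lowered the shares of cells and the correlations as given above. No paired analysis was possible because each day has 1 library and no result comes from a test over replicates. Depth limits *MSX1* in embryonic cells, *SMAD6* and *SMAD9* in *TFAP2A*-positive cells, and every value in the 33 *CER1*-high cells of D6.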
